A study of Homo sapiens with 12 samples.

Results

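Sorted cells of the human leukaemia line KG1a that were CD34-positive, bright for CD38 and CLL-1 and grown in hypoxia (hypoxic bright, 3 libraries) were compared with CD34-positive cells that were dim for both antigens and grown in normoxia (normoxic dim, 3 libraries). These are 6 of the 12 libraries of the series, which was set up to ask how oxygen affects both phenotypic subsets of the line. The other 6 are normoxic bright and hypoxic dim cells, 3 libraries each. All 12 came from this 1 line, wild-type KG1a in RPMI medium with serum. Hypoxia was 3% oxygen, and the labels give neither the oxygen level of normoxia nor the time spent in hypoxia. The comparison was chosen because it changes subset and oxygen together, and because both of its groups were low in airway epithelium transcripts. A difference between its groups may therefore stem from the subset, from oxygen or from both, and the other 2 groups were used to read the parts. The table holds 28395 genes. Tests covered the 15057 whose normalized value reached 10 in 3 or more libraries and left out the other 13338.

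KG1a is a line derived from an acute myeloid leukaemia, and it keeps the surface antigen CD34, which marks haematopoietic stem and progenitor cells. CD38 is an enzyme on the cell surface that consumes NAD and appears as progenitors mature. CLL-1, the product of CLEC12A, is an inhibitory lectin receptor of myeloid cells. When oxygen is low, prolyl hydroxylases such as EGLN1 no longer mark the HIF alpha subunits for degradation. HIF then binds short hypoxia response elements and turns on genes of glycolysis, of blood vessel growth and of mitophagy, and its own hydroxylases.

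The 6 libraries held an estimated 25200000 to 39500000 counted reads each, and 17167 to 18051 genes with a value above 0. On the first principal component of log2 values over all 12 libraries, which held 36.3% of the variance, hypoxic bright libraries lay at -72.37, -49.03 and -72.6 and normoxic dim libraries at 37.5, -11.76 and -1.51. Hypoxic dim libraries lay at 51.72, 63.93 and 15.78 and normoxic bright libraries at 41.32, 15.65 and -18.64. Normoxic dim libraries were thus not the far end of this axis, and normoxic dim 1 lay apart from its replicates. The labels do not say whether replicates came from separate cultures, so p-values measure only the spread between these samples. In bulk RNA, fewer cells of a type and less RNA per cell cannot be told apart.

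Markers of cell types that KG1a is not were summed in every library. Airway epithelium markers summed to 324, 1169 and 85 in hypoxic bright and to 281, 213 and 238 in normoxic dim libraries, against 302 to 7488 in normoxic bright and 1255 to 18663 in hypoxic dim libraries. None of the 12 airway markers tested was called, but the comparison was chosen for low airway transcripts, so this is no separate result. Their median log2 difference was 1.155, and 3 of them differed between replicates of a group by more than 4-fold after 10 was added. MUC5B was 29, 146 and 3 in hypoxic bright and 5, 0 and 8 in normoxic dim libraries. Fibroblast markers, by contrast, summed to 1375, 1680 and 1558 in hypoxic bright and to 8542, 2610 and 2977 in normoxic dim libraries. Skeletal muscle markers summed to 340, 517 and 477 in hypoxic bright and to 4653, 1153 and 1853 in normoxic dim libraries. Both sums were higher in every normoxic dim library than in any hypoxic bright library, and highest in normoxic dim 1. Among other libraries, normoxic bright 1 was also high, at 6382 for fibroblast and 3291 for muscle markers. In each of the 6 libraries 8 or 9 of 9 fibroblast markers and 12 to 18 of 18 muscle markers were above 0. Neutrophil granule markers summed to 44 to 51 in hypoxic bright and 70 to 169 in normoxic dim libraries, erythroid markers to 1 to 14 and 13 to 21, and B cell markers to 15643 to 16408 and 13192 to 16120.

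**Figure D1:**
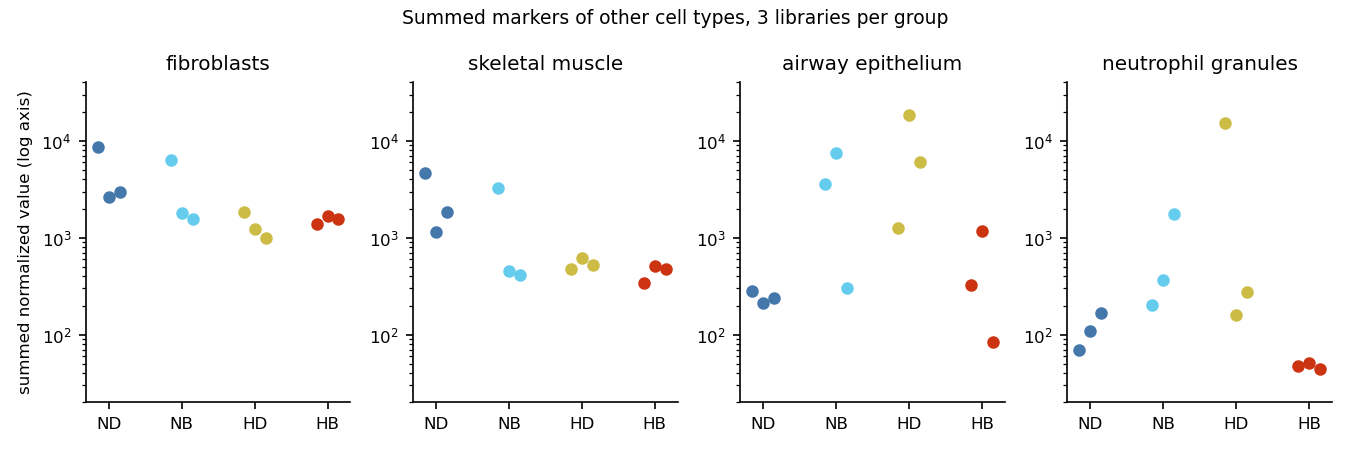
Summed normalized values (log axis) of markers of 4 other cell types in each of the 12 libraries, 3 points per group (ND normoxic dim, NB normoxic bright, HD hypoxic dim, HB hypoxic bright). Airway markers stay at or below 1169 in ND and HB, while the 3 ND libraries lie above the 3 HB libraries for fibroblast and muscle markers, ND 1 highest at 8542 and 4653.

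Hypoxic bright cells had 984 genes called higher and 1135 called lower than normoxic dim cells, at an adjusted p under 0.05 by limma over all genes tested. These were 6.54% and 7.54% of the genes tested, 14.1% together. At an unadjusted p under 0.05 there were 4282 genes. Most rises were small, with a median fold of 1.46, and 166 reached 2-fold and 36 reached 4-fold. Falls had a median fold of 1.7, and 469 reached 2-fold and 300 reached 4-fold. The 3 libraries of one group lay all above those of the other in 981 of the genes called higher and 1131 of those called lower, where 40.1% of all genes tested were separated in this way. Leaving out normoxic dim 1 and normoxic bright 1, the 2 libraries highest in muscle and fibroblast markers, gave 600 genes higher and 658 lower, of which 579 and 647 were among the genes called with all 12 libraries.

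The largest falls shared a library pattern with the muscle and fibroblast markers. Among the 300 genes called lower by at least 4-fold, 270 had their highest normoxic dim value in normoxic dim 1, and 234 had their highest normoxic bright value in normoxic bright 1. Among the 36 genes called higher by at least 4-fold, 7 and 10 did. That set was selected for low normoxic dim values, and the same counts over all genes tested were not taken. With the muscle and fibroblast sums entered as covariates, 315 genes were called higher and 307 lower. Both sums separate the 2 groups compared, so this fit cannot tell such transcripts from the group difference itself. The part of such transcripts in the remaining calls was not tested.

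**Figure D2:**
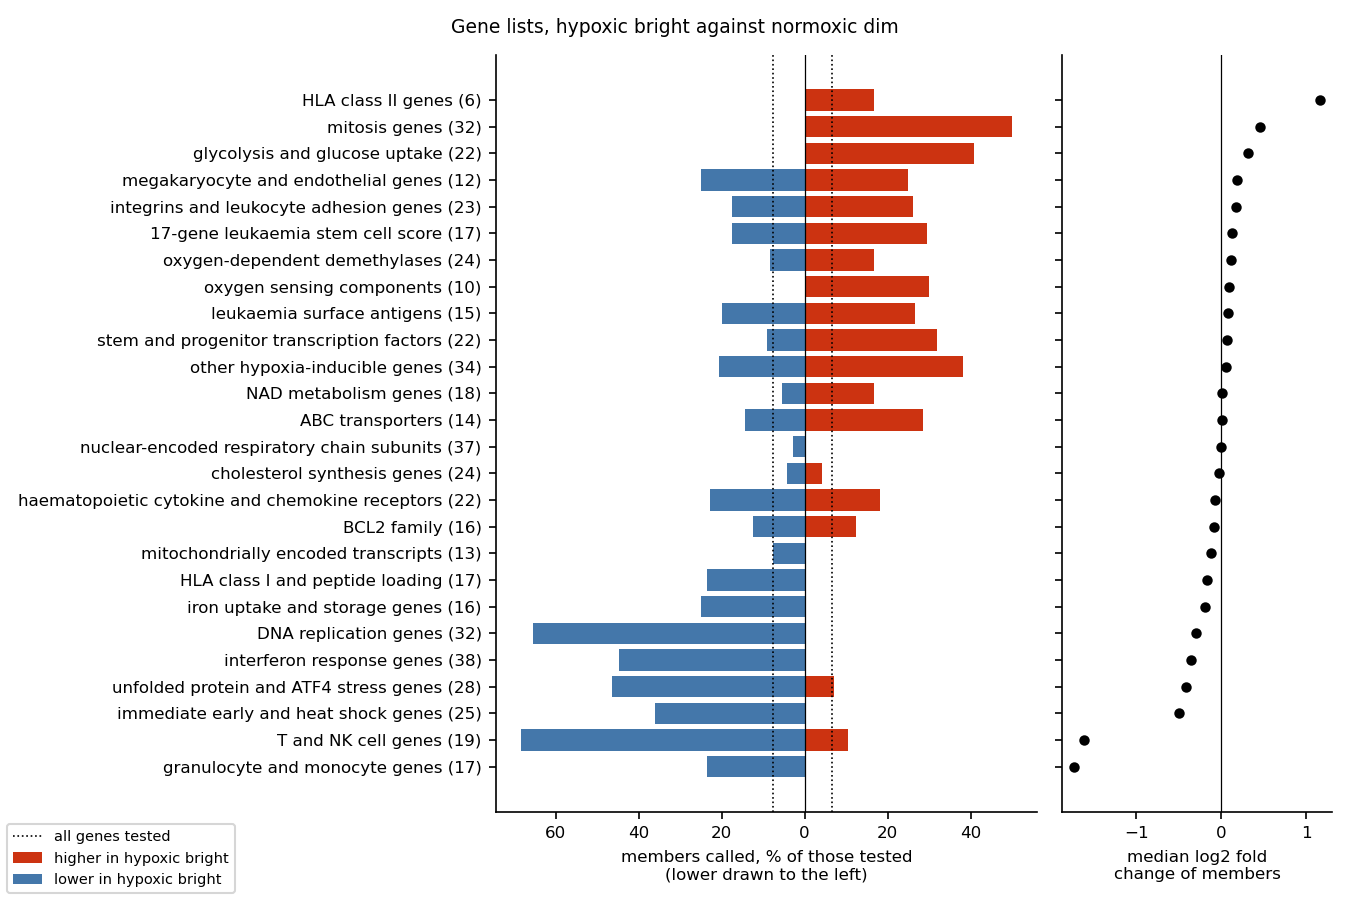
Left, share of the tested members of each of 26 gene lists that were called higher (drawn to the right) or lower (drawn to the left) in hypoxic bright than in normoxic dim cells, in percent, with dotted lines at the shares over all genes tested (6.54% higher, 7.54% lower) and the number of members tested in brackets. Right, median log2 fold change of the tested members, where the median over all genes was -0.01; on the left, T and NK cell and DNA replication genes have the longest bars for falls (68.4% and 65.6%) and mitosis genes the longest for rises (16 of 32).

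The antigens used for the sort came first. CD38 (chr4:15778298-15849083 in the deposited hg38 table) was at 125, 139 and 161 in hypoxic bright and at 6, 7 and 2 in normoxic dim libraries. No value of one group came near the other, and the gene was 25.7-fold higher (log2 4.68 ± 0.42, standard error, adjusted p 1.45e-05). CD34 was at 32245, 31967 and 32032 in hypoxic bright and at 18117, 20882 and 20265 in normoxic dim libraries, a rise of 0.70 ± 0.08 on the log2 scale (adjusted p 5.95e-05). CLEC12A, whose product was the other sort antigen, was at 33, 15 and 13 against 27, 13 and 15. Its groups overlapped and its transcript did not pass the test (log2 0.09 ± 0.58, adjusted p 0.94), so the label of CLL-1 bright cells was not matched by a measurable difference in this transcript. Without hypoxic bright 1 its log2 difference was -0.30.

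Other surface proteins of blood cells rose too, by 1.73-fold to 9.96-fold in those named here. CD84, a SLAM family receptor of leukocytes, was at 272, 362 and 372 in hypoxic bright and at 29, 38 and 31 in normoxic dim libraries. All hypoxic bright values lay far above, a 9.96-fold difference (log2 3.32 ± 0.31, adjusted p 2.03e-05). CD300A, an inhibitory receptor of myeloid and lymphoid cells, was at 718, 790 and 705 against 129, 135 and 172 (log2 2.35 ± 0.30, adjusted p 0.000207). CCR2, the receptor of the monocyte chemokine CCL2, was at 222, 262 and 214 against 64, 62 and 46 (log2 2.01 ± 0.18, adjusted p 1.35e-05), again with no overlap. CD33, a sialic acid binding receptor used as a drug target in acute myeloid leukaemia, rose from a mean of 41.67 to 155 (log2 1.88 ± 0.22). CD7, a T cell antigen that some leukaemic progenitors carry, was at 3934, 4225 and 4658 against 2517, 2440 and 2418 (log2 0.79 ± 0.08, adjusted p 3.08e-05).

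Of the 15 leukaemia surface antigens tested, 4 were called higher (CD38, CD34, CD33 and CD7) and 3 lower, with a median log2 difference of 0.07. The largest of the falls was KIT, the receptor of stem cell factor, at 28, 14 and 35 in hypoxic bright and 155, 152 and 112 in normoxic dim libraries (log2 -2.48 ± 0.50, adjusted p 0.00539). When normoxic dim 1 and normoxic bright 1 were left out, 4 were higher and 1 lower, and the same counts came without normoxic dim 1 or without hypoxic bright 3 alone.

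Genes that are not surface antigens also had large rises. NYNRIN, one of the 17 genes of a published leukaemia stem cell score, was at 1692, 1857 and 2212 in hypoxic bright and at 411, 499 and 420 in normoxic dim libraries. The groups were far apart, and the fitted difference was 4.31-fold (log2 2.11 ± 0.13, adjusted p 9.63e-07). HPSE2, which encodes a heparan sulfate binding relative of heparanase, was at 610, 644 and 711 against 178, 146 and 133 (log2 2.10 ± 0.15, adjusted p 2.5e-06). CTTNBP2, which binds the actin regulator cortactin, was at 216, 247 and 282 against 43, 50 and 49 (log2 2.36 ± 0.24, adjusted p 4.03e-05). BTBD11 rose by 2.53 ± 0.35, WDFY4, needed for cross-presentation by dendritic cells, by 2.36 ± 0.46 and GCSAM, a signalling protein of germinal centre B cells, by 2.13 ± 0.25. MYO1F, a myosin of leukocytes, was at 442, 512 and 529 against 54, 90 and 78 (log2 2.75 ± 0.82, adjusted p 0.0401). Its 2 groups did not overlap, but hypoxic dim 1 held 1795 against 81 and 108 in the other hypoxic dim libraries, which widened the shared spread, and the call was lost when any one of the 6 libraries was left out (adjusted p 0.0683 to 0.14).

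**Figure D3:**
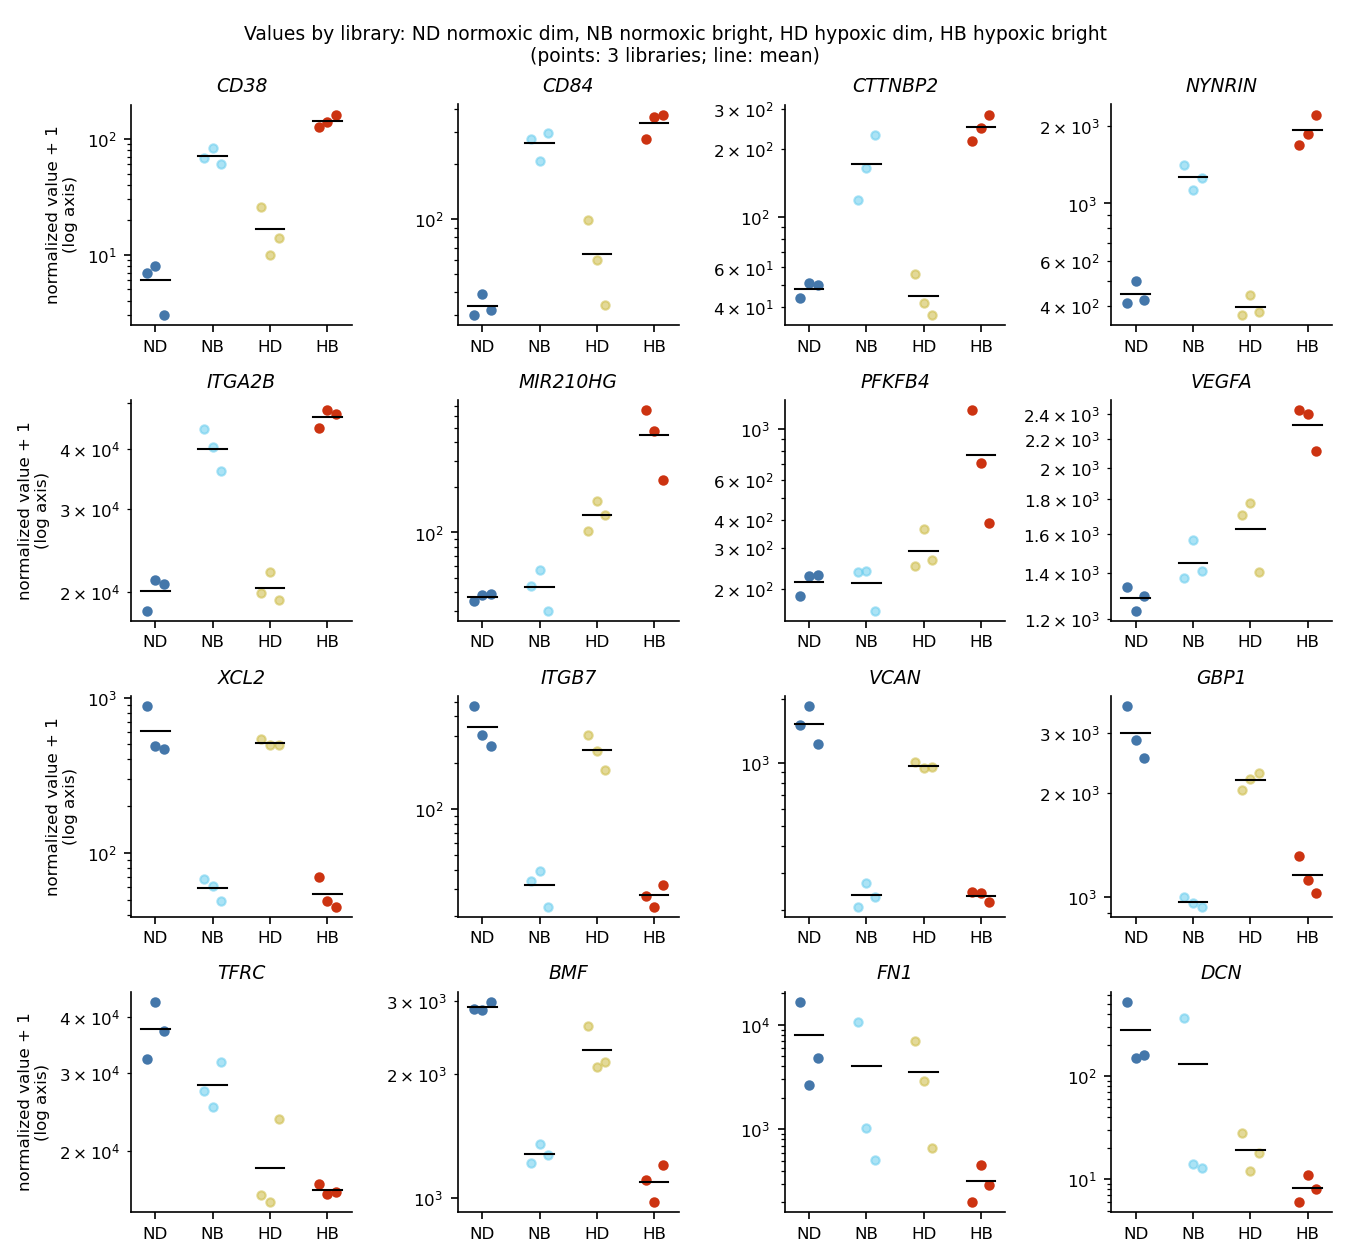
Normalized value plus 1 (log axes) of 16 genes in each library, 3 points per group with a line at the mean (ND normoxic dim, NB normoxic bright, HD hypoxic dim, HB hypoxic bright). CD38, CD84, CTTNBP2, NYNRIN and ITGA2B are high in both bright groups, MIR210HG, PFKFB4 and VEGFA are highest in HB, XCL2, ITGB7, VCAN, GBP1 and BMF are low in both bright groups, the TFRC mean is lowest in HB, and FN1 and DCN are highest in ND 1.

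The abundant platelet integrin rose as a pair. ITGA2B, the alpha IIb chain, was at 44211, 48254 and 47328 in hypoxic bright and at 18278, 21240 and 20845 in normoxic dim libraries. Every hypoxic bright value was above every normoxic dim value, a rise of 1.21 ± 0.09 (adjusted p 2.5e-06). ITGB3, its beta 3 partner, was at 2669, 2735 and 2413 against 757, 1270 and 877 (log2 1.46 ± 0.17, adjusted p 9.01e-05). Of 12 megakaryocyte and endothelial genes tested, 3 were called higher, the third being VWF, the carrier of clotting factor VIII, with a mean of 796.7 against 503.7 (log2 0.67 ± 0.16, adjusted p 0.0143). VWF was no longer called without normoxic dim 1, without normoxic dim 3 or without hypoxic bright 3 (highest adjusted p 0.0719). Another 3 were called lower, among them PECAM1, the junction protein CD31, at 815, 805 and 810 against 1310, 1341 and 1235 (log2 -0.68 ± 0.10). The other two, EMCN and THBS1, lost their call without any one of the 6 libraries, which left 1 lower each time. The median over the 12 was 0.18. Other abundant genes past 2-fold were LGALS12, a galectin of fat and myeloid cells, at 5144, 5705 and 5833 against 1790, 2264 and 2177 (log2 1.43 ± 0.11), and BAHCC1, a reader of repressive chromatin, at 6997, 7145 and 6231 against 2377, 2903 and 2758 (log2 1.34 ± 0.13).

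Genes that hypoxia is known to induce rose in part. Of 34 such genes outside glycolysis, 13 were called higher and 7 lower, and of 22 genes of glycolysis and glucose uptake 9 were called higher and 0 lower. The median log2 difference was 0.06 for the first list and 0.31 for the second. To show the DNA next to these genes, the promoter windows of the 4 called members with the largest mean oxygen effect are printed below from the RefSeq table for GRCh38.p14, 250 bases before to 50 after the annotated start and 5′ to 3′ along the gene's strand. Capitals mark the core of the hypoxia response element, ACGTG or GCGTG, read on both strands, so that CACGT and CACGC count too. The windows are chr11:568408-568707 on the minus strand for MIR210HG, chr4:185396591-185396890 on the plus strand for ANKRD37, chr3:48556754-48557053 on the minus strand for PFKFB4 and chr10:72273674-72273973 on the plus strand for DDIT4. The deposited coordinates of PFKFB4 run to chr3:48562774, so its window lies inside the deposited gene span and not at its 5′ end.
MIR210HG: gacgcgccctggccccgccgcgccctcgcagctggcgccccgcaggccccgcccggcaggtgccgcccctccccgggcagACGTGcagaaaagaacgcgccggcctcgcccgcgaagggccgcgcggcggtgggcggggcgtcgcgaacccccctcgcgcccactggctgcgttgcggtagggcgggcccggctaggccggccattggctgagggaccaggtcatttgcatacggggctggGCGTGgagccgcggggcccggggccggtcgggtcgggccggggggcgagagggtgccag
ANKRD37: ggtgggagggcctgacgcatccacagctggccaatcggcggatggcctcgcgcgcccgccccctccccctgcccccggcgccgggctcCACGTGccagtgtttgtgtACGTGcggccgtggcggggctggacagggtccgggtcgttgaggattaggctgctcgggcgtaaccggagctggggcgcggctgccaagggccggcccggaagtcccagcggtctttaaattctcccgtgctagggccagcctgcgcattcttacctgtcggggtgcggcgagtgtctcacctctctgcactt
PFKFB4: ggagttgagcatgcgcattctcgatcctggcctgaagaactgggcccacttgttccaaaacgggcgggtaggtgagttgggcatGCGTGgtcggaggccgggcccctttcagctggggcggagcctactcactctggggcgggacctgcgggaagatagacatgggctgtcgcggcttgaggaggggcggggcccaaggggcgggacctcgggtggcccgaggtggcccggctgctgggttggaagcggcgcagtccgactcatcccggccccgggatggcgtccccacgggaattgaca
DDIT4: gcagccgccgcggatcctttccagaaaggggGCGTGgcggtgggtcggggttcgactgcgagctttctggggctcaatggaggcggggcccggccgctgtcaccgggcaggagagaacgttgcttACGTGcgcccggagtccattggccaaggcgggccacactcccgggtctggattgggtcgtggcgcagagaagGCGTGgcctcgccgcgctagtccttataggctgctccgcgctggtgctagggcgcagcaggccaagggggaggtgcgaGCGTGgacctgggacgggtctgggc

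The MIR210HG window held 2 matches, that of ANKRD37 3, that of PFKFB4 1 and that of DDIT4 4. In ANKRD37 the palindrome CACGTG is read on both strands, and its matches overlap. Among the 22 glycolysis and other hypoxia-inducible genes called higher, 19 had a window and 16 of these, 84.2%, held a match. Of all 27305 windows 48.4% did, and of the tested genes with a window 62.0% did. Of the 7 members called lower, 5 had a window and 4 of these, 80.0%, held a match. Among all genes with a window, 54.1% of those called higher and 59.1% of those called lower did. Only 77.3% of the tested genes had a window, which is too few for a comparison of shares, and a match says only that the letters are there.

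MIR210HG, the host transcript of the hypoxia-induced microRNA miR-210, was at 652, 471 and 222 in hypoxic bright and at 34, 37 and 38 in normoxic dim libraries. The lowest hypoxic bright value was far above the highest normoxic dim value, a difference of 3.46 ± 0.34 on the log2 scale (adjusted p 3.27e-05). Since the strand of counting is not given in the sources used here, reads of overlapping transcripts cannot be told apart. PFKFB4, which makes the activator of phosphofructokinase, was at 1204, 706 and 387 against 184, 226 and 229 (log2 1.70 ± 0.31, adjusted p 0.00314). ANKRD37 was at 145, 111 and 81 against 40, 24 and 49 (log2 1.57 ± 0.32, adjusted p 0.00555). DDIT4, an inhibitor of the growth kinase mTORC1, was at 5980, 4699 and 2962 against 2267, 2289 and 2360 (log2 0.92 ± 0.20, adjusted p 0.00741).

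Hypoxic bright 1 was the highest and hypoxic bright 3 the lowest of the hypoxic bright libraries for nearly all of these genes. BNIP3, a mitophagy receptor, was at 1918, 1499 and 854 in hypoxic bright and at 629, 541 and 604 in normoxic dim libraries (log2 1.19 ± 0.21, adjusted p 0.0022). P4HA1, a collagen prolyl hydroxylase subunit, was at 3865, 2803 and 1945 against 1389, 1154 and 1174 (log2 1.16 ± 0.18, adjusted p 0.000854). VEGFA, the growth factor of blood vessels, was at 2427, 2398 and 2113 against 1335, 1231 and 1294 (log2 0.84 ± 0.10, adjusted p 9.25e-05). Of the 22 members called higher, 21 had their highest hypoxic bright value in hypoxic bright 1 and 22 their lowest in hypoxic bright 3. Over all 984 genes called higher, 350 were highest in hypoxic bright 1 and 505 lowest in hypoxic bright 3. Hypoxic bright 3 still lay above the normoxic dim libraries for each of the genes named here.

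Within glycolysis, HK2, which phosphorylates glucose, was at 8115, 7557 and 5732 in hypoxic bright and at 3853, 4539 and 4112 in normoxic dim libraries (log2 0.76 ± 0.12, adjusted p 0.000773). The lactate exporter SLC16A3 was at 3377, 2965 and 2282 against 1952, 1734 and 1634 (log2 0.68 ± 0.14, adjusted p 0.00741). LDHA, which makes lactate, was at 45435, 40046 and 32272 against 29644, 26863 and 25963 (log2 0.50 ± 0.10, adjusted p 0.00587). These groups did not overlap, and the rises were smaller than 2-fold. The glucose transporter SLC2A1 (log2 0.31) and GAPDH (log2 0.07) did not pass the test. The count of 9 fell to 5 without normoxic dim 1, normoxic dim 3 or hypoxic bright 1 and to 4 without hypoxic bright 2, was 6 without normoxic dim 2, and was 13 without hypoxic bright 3. In the fit without normoxic dim 1 and normoxic bright 1, 6 were called. With the muscle and fibroblast sums as covariates 2 were called, and with the muscle, airway and neutrophil sums 3, with medians of 0.38 and 0.35.

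Members of the hypoxia list that were called lower included P4HA2, another collagen hydroxylase subunit, at 3, 23 and 13 in hypoxic bright and 461, 49 and 165 in normoxic dim libraries, and the collagen cross-linking enzyme LOX, with means of 21.67 and 381.3. Both were highest in normoxic dim 1, as were the fibroblast markers. Without normoxic dim 1, 10 members were higher and 0 lower, and without any 1 library 0 to 5 were lower. After removal of normoxic dim 1 and normoxic bright 1, 11 were higher and 3 lower.

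Genes of the oxygen sensing machinery were looked at next. HIF1A, the main HIF alpha subunit, was at 3560, 3485 and 3037 against 3547, 3823 and 3533, did not pass the test (log2 -0.12 ± 0.11, adjusted p 0.546) and overlapped between the groups. EPAS1, which encodes HIF-2 alpha, was at 744, 802 and 727 against 462, 408 and 413 (log2 0.82 ± 0.16, adjusted p 0.0046), with no overlap. Of 10 oxygen sensing components tested, 3 were called higher (30.0%, against 6.54% of all genes tested) and 0 lower, with a median of 0.09. Leaving out 1 library brought this to between 1 and 2.

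T and NK cell genes had the largest share of falls among the 26 lists. Of 19 tested, 13 were called lower and 2 higher, with a median log2 difference of -1.62. XCL2, a chemokine of cytotoxic lymphocytes, was at 69, 48 and 44 in hypoxic bright and at 882, 486 and 466 in normoxic dim libraries. The groups were far apart (log2 -3.45 ± 0.24, adjusted p 2.44e-06), and its close copy XCL1 fell by 4.54 ± 0.42, though reads may be split between these near-identical genes. ITGB7, the beta 7 chain of gut-homing integrins, was at 26, 22 and 31 against 467, 302 and 255 (log2 -3.61 ± 0.28, adjusted p 4.51e-06). The granule protease GZMB was at 12, 15 and 10 against 124, 122 and 105 (log2 -3.16 ± 0.32, adjusted p 3.69e-05). CD247, the zeta chain of the T cell receptor, was at 63, 64 and 50 against 283, 194 and 205 (log2 -1.92 ± 0.22).

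Smaller falls were seen in other members. NKG7, a granule protein, was at 1942, 1609 and 1646 against 4298, 3771 and 3252 (log2 -1.12 ± 0.12), and CD3D, a chain of the T cell receptor complex, at 4741, 4781 and 4665 against 9078, 7177 and 6683 (log2 -0.68 ± 0.10). The pore-forming protein PRF1 went the other way with CD7, at 1174, 1164 and 1029 against 728, 770 and 684 (log2 0.62 ± 0.12, adjusted p 0.00507). When normoxic dim 1 and normoxic bright 1 were left out, the counts were again 13 lower and 2 higher. Leaving out any 1 library gave 13 to 14 lower and 2 higher.

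Of 38 interferon response genes tested, 17 were called lower in hypoxic bright cells, 0 higher and 21 not called, with a median log2 difference of -0.36. GBP1, an antimicrobial GTPase, was at 1310, 1121 and 1028 in hypoxic bright and at 3582, 2849 and 2529 in normoxic dim libraries (log2 -1.36 ± 0.12, adjusted p 1.32e-05). MX1, an antiviral GTPase, was at 120, 130 and 116 against 270, 258 and 262 (log2 -1.11 ± 0.15, adjusted p 0.000296). Neither gene overlapped between the groups. IFIT1 (log2 0.17), IFI6 (log2 0.23) and OAS2 (log2 0.01) did not pass the test. Without the 2 libraries highest in muscle and fibroblast markers, 13 were lower and 0 higher.

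Of 17 HLA class I and peptide loading genes, 4 were called lower and 0 higher, with a median of -0.17. Without normoxic dim 1, hypoxic bright 1 or hypoxic bright 2 the count was 2, and TAP2 lost its call without any one of the 6 libraries. TAP1, a chain of the peptide transporter, was at 5338, 5147 and 5200 against 9507, 8628 and 7756 (log2 -0.72 ± 0.09, adjusted p 0.000137). HLA-C, at log2 -0.12, did not pass. CIITA, the class II transactivator, was at 89, 79 and 81 against 7, 8 and 12 (log2 3.10 ± 0.79, adjusted p 0.0194). Its groups did not overlap, but one hypoxic dim library was at 0, and the call was lost without normoxic dim 1 or without any one of the hypoxic bright libraries (highest adjusted p 0.0747). HLA-DRA, a class II chain, was at 21, 23 and 15 against 6, 7 and 5 and did not pass (adjusted p 0.196).

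The genes called in 2 cell cycle lists went in opposite directions. Of 32 DNA replication genes, 21 were called lower and 0 higher, with a median log2 difference of -0.30, and of 32 mitosis genes, 16 were called higher and 0 lower, with a median of 0.45. CDC6, which loads the replicative helicase, was at 2572, 2514 and 2671 in hypoxic bright and at 3864, 3939 and 3741 in normoxic dim libraries (log2 -0.57 ± 0.07, adjusted p 9.01e-05). GINS2, a part of that helicase, was at 2011, 1917 and 2218 against 3189, 2831 and 2909 (log2 -0.54 ± 0.07, adjusted p 0.000396). CCNB2, a mitotic cyclin, was at 2974, 2694 and 2707 against 1675, 1722 and 1688 (log2 0.72 ± 0.10, adjusted p 0.000461). CENPA, the histone of centromeres, was at 1173, 1221 and 1174 against 848, 820 and 777 (log2 0.55 ± 0.08, adjusted p 0.000705).

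Groups did not overlap for any of these 4 genes. PLK1, a mitotic kinase, was at 4565, 4635 and 4709 against 2764, 3098 and 2474 (log2 0.74 ± 0.15, adjusted p 0.00603). CDK1 (log2 -0.03), needed at entry into mitosis, and MKI67 (log2 0.38), the Ki-67 proliferation antigen, did not pass. Leaving out 1 library gave 11 to 18 replication genes lower, 11 of them without normoxic dim 1 and without hypoxic bright 2, 13 without hypoxic bright 1 and 14 without normoxic dim 2. It gave 10 to 17 mitosis genes higher, 10 of them without normoxic dim 3 and without hypoxic bright 2. When normoxic dim 1 and normoxic bright 1 were left out, the counts were 14 and 13.

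Of 28 genes of the unfolded protein and ATF4 stress responses, 13 were called lower in hypoxic bright cells, 2 higher and 13 not called, with a median log2 difference of -0.42, and the 2 higher ones were VEGFA and DDIT4, which the hypoxia list also holds. ATF3, a transcription factor induced by stress, was at 39, 25 and 47 in hypoxic bright and at 209, 171 and 206 in normoxic dim libraries (log2 -2.41 ± 0.22, adjusted p 2.03e-05). PPP1R15A, which restarts translation after stress, was at 1031, 908 and 1140 against 1990, 1894 and 2032 (log2 -0.95 ± 0.09, adjusted p 2.75e-05). TRIB3, a pseudokinase that ATF4 induces, was at 224, 191 and 222 against 502, 462 and 386 (log2 -1.08 ± 0.17). Every one of these had no overlap. In the fit without normoxic dim 1 and normoxic bright 1, 14 were lower and 2 higher.

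The list of immediate early and heat shock genes had 25 members tested, 9 called lower and 0 higher, with a median of -0.50. FOSB, an AP-1 subunit, was at 43, 34 and 56 against 146, 89 and 120 (log2 -1.40 ± 0.27, adjusted p 0.00464). Only 2 were called without normoxic dim 1 and without hypoxic bright 2, 3 without hypoxic bright 1, 4 without normoxic dim 3, and 2 without normoxic dim 1 and normoxic bright 1.

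Iron genes included some of the most abundant falls. TFRC, the transferrin receptor that brings iron into the cell, was at 16888, 16073 and 16242 in hypoxic bright and at 32179, 43313 and 37181 in normoxic dim libraries. The groups were far apart, a fall of 2.27-fold (log2 -1.19 ± 0.15, adjusted p 0.000183). Both ferritin chains, which store iron, fell as well. FTL was at 59923, 56551 and 72010 against 114987, 111651 and 123323 (log2 -0.90 ± 0.09, adjusted p 4.31e-05), and FTH1 at 40827, 39519 and 51954 against 87533, 76157 and 88473 (log2 -0.94 ± 0.11, adjusted p 0.000149). HMOX1, which frees iron from haem, was at 57, 36 and 65 against 1568, 465 and 810 (log2 -4.01 ± 0.69, adjusted p 0.00193), and it was highest in the 2 libraries highest in muscle and fibroblast markers, with 1064 in normoxic bright 1 against 88 and 136 in the other normoxic bright libraries. Of 16 iron uptake and storage genes, these 4 were called lower and 0 higher, with a median of -0.20, and the counts were the same without normoxic dim 1 and normoxic bright 1 and without any 1 of the 6 libraries.

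In the BCL2 family, which controls apoptosis, 2 of 16 genes were called lower and 2 higher, with a median of -0.08. Each count was 12.5% of the list, against 7.54% lower and 6.54% higher over all genes tested. BMF, a BH3-only protein that promotes cell death, was at 1103, 973 and 1201 against 2875, 2852 and 2989 (log2 -1.42 ± 0.10, adjusted p 2.44e-06). PMAIP1, the BH3-only protein NOXA, was at 991, 865 and 930 against 1617, 1458 and 1685 (log2 -0.77 ± 0.16, adjusted p 0.00582). The groups did not overlap for either. The 2 higher genes were the mitophagy receptors BNIP3 and BNIP3L, and BCL2 (log2 0.09) and MCL1 (log2 -0.13), which both protect cells, did not pass. Without hypoxic bright 3 there were 5 lower.

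Among 22 stem and progenitor transcription factors, 7 were called higher (31.8%, against 6.54% of all genes tested) and 2 lower (9.09%, against 7.54%), with a median of 0.07. GATA2, a factor of stem cells and of the megakaryocyte and mast cell lineages, was at 9409, 10178 and 10977 in hypoxic bright and at 6594, 7018 and 7328 in normoxic dim libraries (log2 0.54 ± 0.08, adjusted p 0.000659). FLI1, a megakaryocyte factor, was at 9554, 9167 and 9028 against 6375, 6829 and 7206 (log2 0.44 ± 0.07, adjusted p 0.000818). SPI1, which drives the myeloid lineage, was at 1055, 1062 and 1398 against 367, 370 and 421 (log2 1.59 ± 0.35, adjusted p 0.00985). HOXA10 was at 2186, 2077 and 2266 against 3351, 3100 and 3379 (log2 -0.59 ± 0.09, adjusted p 0.00077). These 4 genes showed no overlap. After removal of normoxic dim 1 and normoxic bright 1, 4 members were higher and 1 lower, and without any 1 library 4 to 6 were higher and 1 lower.

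Of the 17 genes of the leukaemia stem cell score, 5 were called higher and 3 lower, with a median of 0.13. Beside NYNRIN and CD34, SMIM24 was at 6629, 6070 and 5777 against 3772, 3625 and 3918 (log2 0.71 ± 0.08, adjusted p 0.000128). DNMT3B, a DNA methyltransferase, was at 9193, 9549 and 9336 against 11946, 13626 and 12854 (log2 -0.45 ± 0.08, adjusted p 0.00249). EMP1, an epithelial membrane protein, was at 64, 60 and 55 against 600, 304 and 341 (log2 -2.71 ± 0.41), and it was highest in normoxic dim 1.

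Of 24 genes in the list of oxygen-dependent demethylases, 4 were called higher (16.7%) and 2 lower (8.33%), with a median of 0.11. Over all genes tested the shares were 6.54% and 7.54%, so the share called lower was near that background. Most members need oxygen to strip methyl groups from histones, DNA or RNA, and the list also holds relatives of these enzymes. The 2 lower genes, JMJD6 (log2 -0.32 ± 0.09) and MINA (log2 -0.27 ± 0.06), are among these relatives. TET1, which oxidises 5-methylcytosine, was at 586, 619 and 540 in hypoxic bright and at 294, 338 and 338 in normoxic dim libraries (log2 0.85 ± 0.11, adjusted p 0.000261). KDM5B, which removes methyl groups from lysine 4 of histone H3, was at 8084, 7981 and 6856 against 4641, 5479 and 4907 (log2 0.61 ± 0.08, adjusted p 0.000432). Both were higher in all 3 hypoxic bright libraries. KDM4B (log2 0.55) and KDM3A (log2 0.54) were the others called higher. Without normoxic dim 2 there were 6 higher. The lower count was 0 without hypoxic bright 2 and 1 without hypoxic bright 1 or any one normoxic dim library.

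Of 22 haematopoietic cytokine and chemokine receptors, 4 were called higher and 5 lower, with a median of -0.08. IL1RL1, the receptor of interleukin-33, was at 401, 406 and 454 against 221, 222 and 184 (log2 1.01 ± 0.17, adjusted p 0.00178). CSF3R, the receptor of the granulocyte factor G-CSF, was at 1206, 1246 and 1348 against 651, 675 and 700 (log2 0.91 ± 0.19, adjusted p 0.00656). IL2RB, a chain of the interleukin-2 receptor, was at 265, 205 and 167 against 803, 708 and 505 (log2 -1.66 ± 0.21, adjusted p 0.000227). CCR7, which guides cells to lymph nodes, was at 10, 10 and 11 against 49, 55 and 35 (log2 -2.04 ± 0.35, adjusted p 0.00174). None of the 4 overlapped between groups.

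VCAN, which encodes the matrix proteoglycan versican that monocytes also make, had the smallest adjusted p of all genes named, 3.31e-07. It was at 243, 239 and 216 in hypoxic bright and at 1509, 1857 and 1230 in normoxic dim libraries (log2 -2.70 ± 0.14), with no overlap. Of 17 granulocyte and monocyte genes, 4 were called lower and 0 higher, with a median of -1.73. The myeloid factor CEBPB was at 507, 527 and 569 against 899, 899 and 931 (log2 -0.77 ± 0.09, adjusted p 9.34e-05). Among 23 integrins and leukocyte adhesion genes, 6 were called higher and 4 lower, with a median of 0.18.

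Shares called in the lists for mitochondria and lipids lay near or below those over all genes tested, 6.54% higher and 7.54% lower. The shares called lower were 2.7% for nuclear-encoded subunits, 4.17% for cholesterol synthesis and 7.69% for mitochondrially encoded transcripts. Of 37 nuclear-encoded respiratory chain subunits, 0 were called higher and 1 lower, and of 24 cholesterol synthesis genes 1 and 1, with medians of -0.01 and -0.03. Of 13 mitochondrially encoded transcripts, ND2 alone was called, at 88005, 89957 and 100385 against 142569, 113278 and 120853 (log2 -0.43 ± 0.11, adjusted p 0.0176), and the call was lost without normoxic dim 1, without hypoxic bright 1 or without hypoxic bright 2 (highest adjusted p 0.0866). Of 18 NAD metabolism genes, 3 (16.7%) were called higher, CD38 among them, and 1 (5.56%) lower. Leaving out any 1 library except normoxic dim 2 left 1 higher, and BST1 and NMNAT3 each lost their call in 5 of the 6 fits. The count of lower members was 0 without normoxic dim 1 or hypoxic bright 1. Of 14 ABC transporters, 4 were called higher and 2 lower, but 0 were higher without normoxic dim 1, alone or with normoxic bright 1. There was 1 higher without hypoxic bright 1 or hypoxic bright 2 and 2 higher without normoxic dim 3 or hypoxic bright 3, and 1 lower without any one library. The single respiratory chain call was lost without any one library, and the cholesterol calls were both lost without normoxic dim 1 or normoxic dim 3.

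Marker sums entered as covariates lowered most of these counts. The muscle and fibroblast sums were themselves higher in every normoxic dim than in any hypoxic bright library. Fits with them therefore also take up part of the group difference, and a lower count cannot be credited to such transcripts. With the muscle and fibroblast sums, 8 interferon genes, 6 DNA replication genes, 10 unfolded protein and ATF4 stress genes and 1 immediate early or heat shock gene were called lower. In that fit 4 mitosis genes, 5 hypoxia-inducible genes outside glycolysis and 2 stem and progenitor factors were called higher. With the muscle, airway and neutrophil sums, 7 interferon, 5 replication, 8 stress and 0 immediate early or heat shock genes were lower, and 10 mitosis, 5 hypoxia-inducible and 1 stem and progenitor genes were higher. T and NK cell genes had 12 and 9 called lower in the 2 fits, and 4 iron genes were called lower in both.

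Some large falls were in genes known from connective tissue and muscle, among them DCN, FN1 and DES. DCN, the fibroblast proteoglycan decorin, was at 5, 10 and 7 in hypoxic bright and at 520, 148 and 160 in normoxic dim libraries (log2 -4.84 ± 0.98, adjusted p 0.00575). FN1, fibronectin, was at 199, 459 and 295 against 16589, 2672 and 4795 (log2 -4.31 ± 1.02, adjusted p 0.0139), and it was not called without normoxic dim 1 or without hypoxic bright 1 (highest adjusted p 0.0756). DES, which encodes the muscle filament desmin, was at 28, 52 and 66 against 2512, 496 and 862 (log2 -4.45 ± 1.10, adjusted p 0.0177). The call was lost without normoxic dim 1, hypoxic bright 1 or hypoxic bright 2 (highest adjusted p 0.0894).

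Groups did not overlap for these genes, and normoxic dim 1 was highest in each. PDK4, a kinase that inhibits pyruvate dehydrogenase, was at 1, 0 and 0 against 248, 57 and 76, and its fitted log2 difference of -6.36 ± 1.09 depends on the added 1. NPTX2 (log2 -5.32 ± 1.15), ADAMTS2, which trims procollagen (log2 -5.37 ± 1.08), and the lysosomal protease CTSL (log2 -4.66 ± 0.77) were among the others. In normoxic bright libraries DCN was at 360, 13 and 12 and DES at 1757, 40 and 37, high in normoxic bright 1 alone. With the muscle, airway and neutrophil sums as covariates the FN1 log2 difference was -0.27, and with the muscle and fibroblast sums it was -1.78, and neither passed the adjusted p threshold of 0.05.

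PRSS2, a trypsinogen, fell without this library pattern. It was at 16, 5 and 12 in hypoxic bright and at 264, 213 and 156 in normoxic dim libraries (log2 -4.24 ± 0.35, adjusted p 8.26e-06), with 10, 14 and 11 in normoxic bright libraries. It belongs to a family of near-identical genes among which reads may be split.

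The share of subset and oxygen in the difference was read from all 4 groups. In this layout the mean subset effect (bright minus dim, over both oxygen levels) and the mean oxygen effect (hypoxia minus normoxia, over both subsets) add up to the difference described above. Normoxic bright against hypoxic dim, which shares no library with it, gives the first minus the second. That comparison called 1251 genes, 8.31% of those tested, 605 (4.02%) upward and 646 (4.29%) downward. Among the 984 genes that rose in hypoxic bright cells, 357 (36.3%, and 59.0% of the 605) were also higher in normoxic bright than in hypoxic dim cells, so that the subset effect was the larger. Another 9 (0.915%) were lower there, so that the oxygen effect was the larger, and 618 (62.8%) were not called. Of the 1135 genes lower in hypoxic bright cells, 385 (33.9%, and 59.6% of the 646) were also lower, 2 (0.176%) were higher and 748 (65.9%) were not called.

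**Figure D4:**
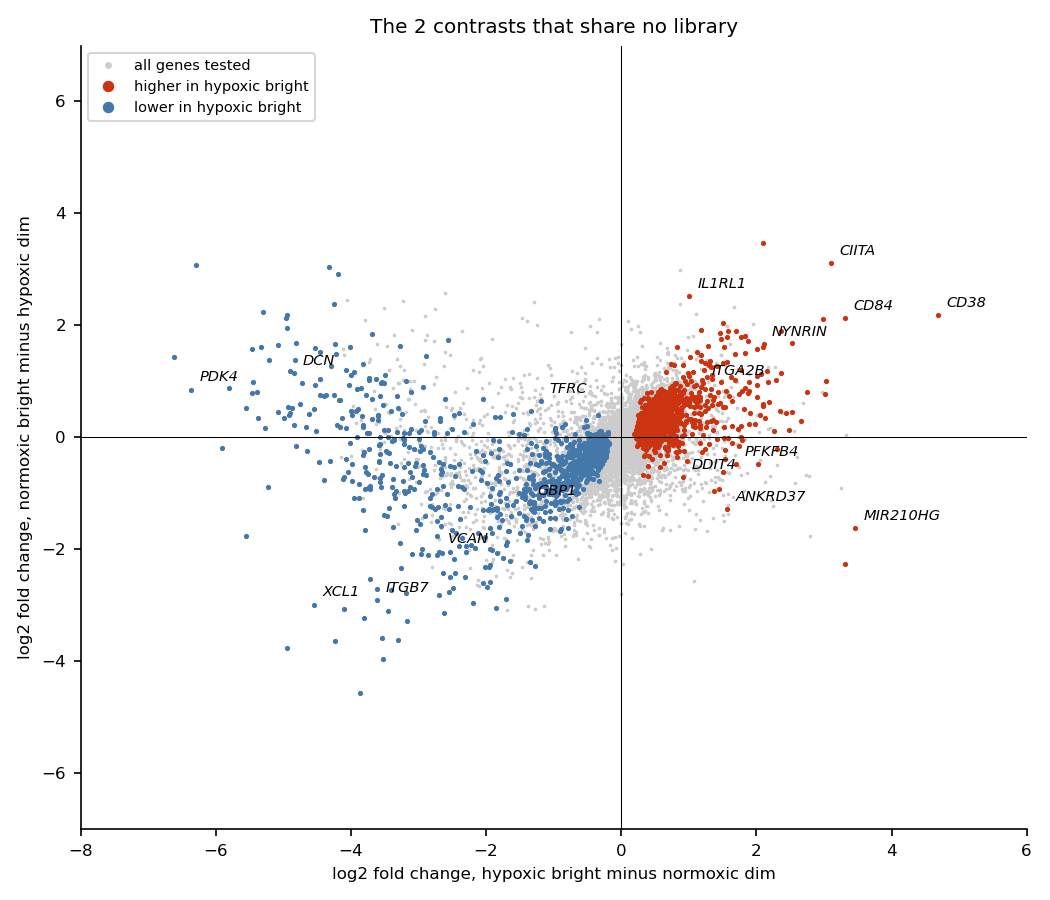
Log2 fold change of each of the 15057 genes tested in hypoxic bright minus normoxic dim cells (x axis) and in normoxic bright minus hypoxic dim cells (y axis), with genes called higher in hypoxic bright cells in red and lower in blue. CD38 and CD84 lie high on both axes, XCL1 and ITGB7 low on both, and MIR210HG and ANKRD37 are higher on the x axis but below 0 on the y axis.

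The 9 genes with the larger oxygen effect were MIR210HG, ANKRD37, DDIT4, VGLL4, NARF, KIFC3, NID2, TRAF3IP3 and PRAM1, named after their values were seen. MIR210HG was at 101, 161 and 130 in hypoxic dim and at 43, 55 and 29 in normoxic bright libraries, with an oxygen effect of 2.54 ± 0.24 and a subset effect of 0.92 ± 0.24. ANKRD37 had an oxygen effect of 1.42 ± 0.22 and a subset effect of 0.15 ± 0.22, and DDIT4 of 0.82 ± 0.14 and 0.11 ± 0.14. The calls of KIFC3, NID2 and TRAF3IP3 in hypoxic bright against normoxic dim cells were each lost in 4 or 5 of the 6 fits without 1 library (highest adjusted p 0.128). VGLL4, a cofactor that competes with YAP for TEAD factors, was at 4087, 3867 and 3283 in hypoxic bright, 2800, 2582 and 2787 in hypoxic dim, 2126, 2186 and 2106 in normoxic bright and 1946, 2235 and 2127 in normoxic dim libraries. Its 2 hypoxic groups both lay above both normoxic groups (oxygen effect 0.59 ± 0.06, subset effect 0.24 ± 0.06). TFRC and STRIP2 were the 2 lower genes with the larger oxygen effect, though STRIP2 was not called in any of the 6 fits without 1 library. TFRC was at 15923, 15360 and 23623 in hypoxic dim and at 27347, 25184 and 31773 in normoxic bright libraries (oxygen effect -0.91 ± 0.11, subset effect -0.27 ± 0.11).

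For the sort antigen and the lineage genes the subset effect was the larger. Over all genes tested, limma called 3309 (22.0%) for the mean subset effect and 34 (0.226%) for the mean oxygen effect at an adjusted p under 0.05. CD38 had a subset effect of 3.44 ± 0.30 and an oxygen effect of 1.25 ± 0.30, and it was at 67, 82 and 60 in normoxic bright and 25, 9 and 13 in hypoxic dim libraries. ITGA2B had effects of 1.09 ± 0.06 and 0.12 ± 0.06, VCAN of -2.37 ± 0.10 and -0.32 ± 0.10, and XCL2 of -3.28 ± 0.17 and -0.17 ± 0.17. Among glycolysis and hypoxia genes both parts pointed up in HK2 (subset 0.55 ± 0.08, oxygen 0.21 ± 0.08), VEGFA (0.34 ± 0.07 and 0.50 ± 0.07) and P4HA1 (0.53 ± 0.13 and 0.63 ± 0.13). The oxygen part is a mean and can hide unequal steps. From normoxia to hypoxia HK2 changed by 0.52 ± 0.12 in bright cells but by -0.10 ± 0.12 in dim cells. The same steps were 0.67 ± 0.10 and 0.33 ± 0.10 for VEGFA, 1.29 ± 0.21 and 0.17 ± 0.21 for BNIP3, and 1.73 ± 0.31 and 0.44 ± 0.31 for PFKFB4. In other genes the parts had opposite signs. IL1RL1 had a subset effect of 1.76 ± 0.12 and an oxygen effect of -0.75 ± 0.12, and EPAS1 of 1.22 ± 0.11 and -0.39 ± 0.11, so that their differences between hypoxic bright and normoxic dim cells were smaller than the subset effect alone. In limma the oxygen effects of CD38, ITGA2B, VCAN, XCL2, HK2 and EPAS1 did not pass (adjusted p 0.1235 to 0.8054). Those of VEGFA (adjusted p 0.00931) and IL1RL1 (adjusted p 0.0237) did.

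**Figure D5:**
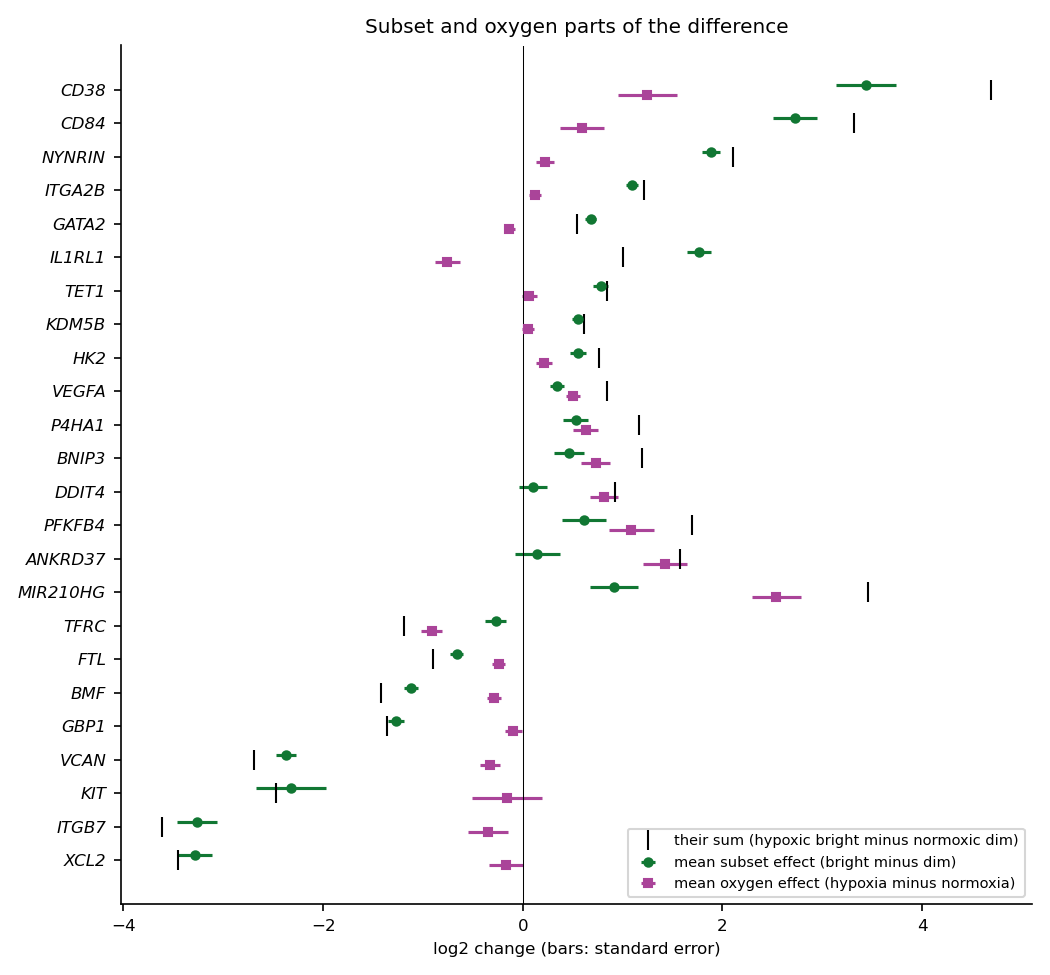
Mean subset effect (green circles) and mean oxygen effect (purple squares) of 24 genes on the log2 scale, with bars of 1 standard error, and their sum, the difference between hypoxic bright and normoxic dim cells (black ticks). The subset effect lies farther from 0 from CD38 (3.44 against 1.25) to HK2 and from FTL to XCL2, and the oxygen effect in MIR210HG (2.54 against 0.92), ANKRD37, PFKFB4, DDIT4 and TFRC.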

How the data were processed

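RNA sequencing of mRNA selected from total RNA was analysed for 12 libraries, 3 in each of 4 groups named by the labels. The submitters' processing notes name Trimmomatic 0.39, STAR 2.4.2a and the build hg38, and the reads were paired. Neither the counting tool nor its annotation and strand setting is given in the sources used here. Each deposited value is a score: the authors divided read counts by a size factor per library and rounded, which was read from the values, so a test for raw counts was not used. Column sums were 31828256 to 32560463, and depth was estimated from the steps between values. Gene coordinates are those of the deposited table.

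Values were taken to log2 after adding 1 as pseudocount and modelled in limma 3.58.1 (R 4.3.3), with 1 mean per group over all 12 libraries, empirical Bayes moderation with a mean trend and 8 residual degrees of freedom. Tests were 2-sided, with Benjamini-Hochberg adjustment over the 15057 genes tested, and genes with an adjusted p under 0.05 were called. Errors are moderated standard errors, n = 3 libraries per group. Tested on simulated data with 15057 genes for hypoxic bright against normoxic dim, the fit recovered 71.7% of 92 genes changed 2-fold and 80.6% of 108 changed 4-fold, with 8 false calls. Gene symbols were missing for 330 genes, and 27 turned into dates were read by gene ID.

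The comparison, the gene lists and the marker lists were chosen with earlier results of these data known. Genes named were the sort antigens, the 10 largest changes per direction whose higher group had a mean of 100 or more, no overlap between groups, replicates within 4-fold and an ordinary symbol, at most 2 called members of each list, lowest adjusted p first, in each direction, and, per direction, the 3 most abundant called genes past 2-fold with no overlap. A few genes these rules pick are not reported here. Other list members are named as examples chosen after their values were seen. Alternatives were other scalings, filters, pseudocounts, thresholds, covariates, a replicate block and leaving out libraries.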

Additional observations from a re-analysis of the deposited data

Results flagged for a closer look

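For 6 of the 88 genes named, the bright minus dim difference differed between hypoxia and normoxia by the interaction term of the same limma fit, where 355 of the 15057 genes tested, 2.36%, were called. The interaction also says by how much hypoxic bright cells departed from the sum of the single steps. TET1 was 1.23 ± 0.11 higher in bright cells in hypoxia and 0.33 ± 0.11 higher in normoxia on the log2 scale, an interaction of 0.9 (adjusted p 0.0159). ITGB3 was 2.26 ± 0.17 higher in hypoxia and 1.06 ± 0.17 higher in normoxia, an interaction of 1.21 (adjusted p 0.0232), and its hypoxic dim libraries were its lowest, at 591, 515 and 519. NYNRIN had an interaction of 0.76 (2.27 ± 0.13 and 1.51 ± 0.13, adjusted p 0.0423) and KDM5B of 0.52 (0.82 ± 0.08 and 0.30 ± 0.08, adjusted p 0.0423).

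DDIT4 was at 0.68 ± 0.20 in hypoxia and -0.47 ± 0.20 in normoxia, where the difference in normoxia did not pass the test (adjusted p 0.212), an interaction of 1.14 (adjusted p 0.0489). ND2 was at -0.70 ± 0.11 in hypoxia and -0.06 ± 0.11 in normoxia, an interaction of -0.64 (adjusted p 0.0447). Airway epithelium markers, at 1255 to 18663 in hypoxic dim libraries, moved with the groups that enter this term, and their part in these values was not tested.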

How the results depend on the processing

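With all 12 libraries 2119 genes were called (984 higher, 1135 lower), and 1251 in normoxic bright against hypoxic dim. Counts stayed within 1.5 times under other scalings, filters and pseudocounts, without the variance trend, with the airway covariate and without genes discordant between replicates. Only the 2 groups compared gave 3655 (1619 and 2036) and 344. An adjusted p under 0.01 gave 912 (459 and 453) and 494. A test against 1.5-fold gave 173 (57 and 116) and 79. With 3 marker covariates there were 614 (328 and 286) and 704. The alternatives chosen after seeing the data, muscle and fibroblast covariates, gave 622 (315 and 307), and leaving out normoxic dim 1 and normoxic bright 1 gave 1258 (600 and 658) and 750. Leaving out 1 library gave 1038 to 1821 called, 494 to 907 higher and 498 to 914 lower, and 717 to 1483 in normoxic bright against hypoxic dim, where the lone pair of a group is assumed to vary like the other groups. A stricter threshold gives fewer calls by construction; for the other settings the cause was not tested.

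Replicate numbers are shared between groups, and same-numbered normoxic dim and hypoxic bright libraries correlated at -0.168, -0.125 and 0.069 in their deviations from the group means. Over all 18 same-numbered pairs of libraries the range was -0.229 to 0.448. These values do not show whether same-numbered libraries share a culture or batch, which was not tested. With the replicate block 1978 genes were called (887 and 1091), and 85 of 88 named genes kept their side of the threshold.

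Of the 88 named genes, 86 kept call and direction under TMM and upper quartile rescaling. CLEC12A, not called in any fit, changed sign to -0.53 with muscle and fibroblast covariates, -0.11 without normoxic dim 2, -0.01 without normoxic dim 3 and -0.30 without hypoxic bright 1; the fits without 1 library ranged from -0.30 to 0.39. With 3 marker covariates CRISPLD2 was at 0.0671 and MYL9 at 0.13, against -5.45 and -4.16. Depth was only estimated, from 25200000 reads, and genes below a value of 10 were not assessed.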

Other observations

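Some genes outside the lists and the naming rule are given here, picked after their values were seen. SIGLEC6, a sialic acid binding receptor, was at 2212, 2082 and 1252 in hypoxic bright libraries and at 411, 475 and 375 in normoxic dim, 545, 610 and 519 in normoxic bright and 358, 353 and 432 in hypoxic dim libraries. The hypoxic bright libraries lay above all others, and the normoxic bright libraries above both dim groups. The log2 difference of hypoxic bright from normoxic dim was 2.10 ± 0.18, with an interaction of 1.83 (adjusted p 0.006). ZMYND8, a chromatin reader, was at 3166, 3038 and 2938 in hypoxic bright, 1705, 2218 and 1937 in hypoxic dim, 1959, 1959 and 2131 in normoxic bright and 1486, 1434 and 1490 in normoxic dim libraries (log2 1.05 ± 0.09, adjusted p 9.57e-06). Its subset and oxygen effects were 0.55 and 0.50. SPOCK2, an extracellular proteoglycan, was at 1271, 1213 and 1206 in hypoxic bright and 350, 490 and 442 in normoxic dim libraries (log2 1.54 ± 0.13, adjusted p 7.04e-06), with effects of 1.04 and 0.50.

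H19, an imprinted long noncoding RNA, was at 224, 386 and 432 in hypoxic bright and 10804, 3753 and 3686 in normoxic dim libraries (log2 -3.98 ± 0.95, adjusted p 0.0141). In normoxic bright libraries it was at 6397, 240 and 212, high in normoxic bright 1 alone, and its call was lost without normoxic dim 1 or without hypoxic bright 1 (highest adjusted p 0.0735). TGFBI, a matrix protein that TGF-beta induces, was at 63, 148 and 96 against 10163, 1778 and 3725 (log2 -5.38 ± 1.07, adjusted p 0.00503), with the same library highest in both normoxic groups as for the fibroblast markers.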
